A study of Homo sapiens with 10 samples.

Results

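The comparison described here sets 12Z cells treated with IL1β and 10 µM CDD-2728 against 12Z cells treated with IL1β and 1 µM CDD-2728, and asks which genes had reached their change at the lower dose and which moved only at the higher one. It rests on 4 of the 10 libraries of the series, 2 at each dose, chosen by the dose named in their labels. 12Z is an established human cell line from peritoneal endometriosis lesions, labelled as epithelial, and CDD-2728 is described by the submitters as an inhibitor of the kinase JNK. All cells were grown in 10% serum, kept overnight in 2% charcoal-stripped serum, pre-treated for 30 min with inhibitor or with its solvent DMSO, and, except for the vehicle cells, then given 10 ng/ml of the inflammatory cytokine IL1β for 6 h. The groups used were IL1β with 10 µM CDD-2728, IL1β with 1 µM CDD-2728, IL1β alone and vehicle without IL1β, each with 2 libraries, and IL1β with 1 µM of a further compound, CDD-3013, entered the fit only. Every cell that received CDD-2728 also received IL1β, and no group received the compound alone. All groups are 1 cell line, and nothing in the labels says that replicate libraries came from separate cultures, so p-values measure the spread between these libraries, which may be technical.

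JNK kinases are switched on by cytokine receptors and cell stress and phosphorylate the transcription factor JUN and its relatives. JUN pairs with FOS or ATF family members to form AP-1, which binds short TGA-TCA elements in the promoters and enhancers of protease, cytokine and growth factor genes, and JUN binds and activates its own promoter. IL1β also signals through NF-κB and through the ERK and p38 kinases, so its target genes can depend on JNK to different degrees. In endometriosis, IL1β is abundant in peritoneal fluid, and the lesions make prostaglandins, chemokines and matrix proteases.

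Library totals were 18261624 and 16474440 counts at 10 µM and 18453896 and 16517549 counts at 1 µM, within the range of 16312600 to 19479416 over all 10 libraries. Levels are given as TMM-scaled CPM, counts scaled to a common library size, averaged over the 4 libraries of the 2 doses. Of the keratins among the epithelial markers, KRT8, KRT18 and KRT19 were abundant, with means of 6198, 1945 and 943 CPM. KRT7 and KRT17 were low, at 6.88 and 2.51 CPM. CDH1 averaged 10.6 CPM, and EPCAM, ESRP1, GRHL2, CLDN7 and OVOL1 were too low to test. All 14 stromal and fibroblast markers examined were above 1 CPM, COL1A1 with a mean of 2588 CPM. All 8 mesothelial markers were above 1 CPM too, from KLK11 with a mean of 5.02 CPM to LRRN4 with 440 CPM. The label epithelial is thus only partly borne out by these markers. Marker sums hold tested genes only. The 10 tested of 15 epithelial markers summed to 8139 and 8766 CPM at 10 µM and 10675 and 8928 CPM at 1 µM. The 14 stromal markers, all tested, summed to 6649 and 6965 CPM at 10 µM and 7716 and 8215 CPM at 1 µM. The 3 tested of 14 immune markers summed to 18.8 and 22.0 CPM at 10 µM and 27.9 and 21.2 CPM at 1 µM. Most of this was CD14, with a mean of 19.6 CPM, and PTPRC was too low to test. In a principal component analysis of the 500 most variable genes, the second component, with 14.93% of the variance, placed the 10 µM libraries at 21.43 and 21.44 and all other libraries between -9.68 and 0.44. The 2 libraries at 1 µM differed from each other more than the replicates of any other group did, with a chi-square of 8.237 per degree of freedom against 4.149 for the 2 libraries at 10 µM. Several calls between the doses are therefore given with and without single libraries. The dose class of a named gene, defined below, was read with all libraries. Only for 15 genes flagged at the end were calls against IL1β also read without single libraries.

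JUN, the central JNK substrate, was lower at each dose of CDD-2728. The 250 bases upstream of the RefSeq start (GRCh38.p14) are shown for examples chosen after their values were seen: 5 genes that were lower at 10 than at 1 µM, and BBC3 and ATF3, which were higher. Each held an AP-1 site, a cyclic AMP response element (the only kind in DUSP8) or a JUN-type site. Of 11220 tested genes with a promoter, 4.14%, 2.92% and 1.27% held these in turn. Of 189 named genes with a promoter in the table, 27 held at least 1 of the 3. Of these 27, 14 were lower, 11 higher and 2 not called, without regard to how many of the 189 were lower or higher. Capitals mark every match, on either strand, to the AP-1 site TGANTCA, the cyclic AMP response element TGACGTCA or the JUN-type site TGACATCA. The examples are JUN (chr1:58784048-58784297, minus strand, first matching base at -67 from the start), DUSP8 (chr11:1572272-1572521, minus strand, at -118 and -74), INHBA (chr7:41703091-41703340, minus strand, at -105, where the site reads TGATGTCA), SERPINB2 (chr18:63887455-63887704, plus strand, at -102), CXCL8 (chr4:73740319-73740568, plus strand, at -137), BBC3 (chr19:47232668-47232917, minus strand, at -113) and ATF3 (chr1:212565157-212565406, plus strand, at -123).
JUN: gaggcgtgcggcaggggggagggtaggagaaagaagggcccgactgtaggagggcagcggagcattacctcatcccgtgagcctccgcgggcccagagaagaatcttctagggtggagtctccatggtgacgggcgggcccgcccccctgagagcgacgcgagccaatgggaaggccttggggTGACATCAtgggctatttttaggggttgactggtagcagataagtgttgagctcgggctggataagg
DUSP8: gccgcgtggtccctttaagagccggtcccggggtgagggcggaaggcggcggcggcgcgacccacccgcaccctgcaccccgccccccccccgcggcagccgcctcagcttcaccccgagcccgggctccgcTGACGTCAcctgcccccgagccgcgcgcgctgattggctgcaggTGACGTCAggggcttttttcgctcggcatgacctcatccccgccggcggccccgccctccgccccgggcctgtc
INHBA: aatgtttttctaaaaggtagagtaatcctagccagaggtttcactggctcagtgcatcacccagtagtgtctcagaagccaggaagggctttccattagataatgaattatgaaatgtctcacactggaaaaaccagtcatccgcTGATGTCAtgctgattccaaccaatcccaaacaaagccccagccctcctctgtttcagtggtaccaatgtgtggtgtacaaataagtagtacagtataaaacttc
SERPINB2: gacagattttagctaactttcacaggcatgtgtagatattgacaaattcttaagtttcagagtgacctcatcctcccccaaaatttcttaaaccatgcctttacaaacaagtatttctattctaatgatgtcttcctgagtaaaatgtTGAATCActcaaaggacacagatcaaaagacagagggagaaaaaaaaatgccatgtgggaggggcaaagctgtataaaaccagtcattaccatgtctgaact
CXCL8: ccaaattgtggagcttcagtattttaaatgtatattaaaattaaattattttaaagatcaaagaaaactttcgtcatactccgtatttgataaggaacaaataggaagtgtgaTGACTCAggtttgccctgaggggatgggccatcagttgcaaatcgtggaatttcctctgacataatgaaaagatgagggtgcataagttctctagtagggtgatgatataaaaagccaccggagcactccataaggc
BBC3: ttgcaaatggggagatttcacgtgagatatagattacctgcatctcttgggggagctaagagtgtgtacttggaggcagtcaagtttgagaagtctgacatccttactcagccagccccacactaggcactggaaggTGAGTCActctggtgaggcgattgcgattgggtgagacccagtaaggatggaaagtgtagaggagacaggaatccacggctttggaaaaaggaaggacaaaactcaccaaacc
ATF3: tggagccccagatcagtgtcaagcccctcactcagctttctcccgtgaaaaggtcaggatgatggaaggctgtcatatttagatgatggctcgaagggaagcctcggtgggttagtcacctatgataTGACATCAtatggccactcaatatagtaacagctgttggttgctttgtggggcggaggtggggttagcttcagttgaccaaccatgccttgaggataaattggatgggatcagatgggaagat
A match is a string of letters and not a measured binding site, and no binding was measured here.

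Across the transcriptome, the step from 1 to 10 µM was large. Of 15740 genes tested, 2093 (13.3%) were higher and 2169 (13.8%) lower at 10 than at 1 µM, 27.1% in either direction, at an adjusted p below 0.05 in edgeR's quasi-likelihood test. A gene past this threshold is said below to be called. For comparison, 4.59% of genes differed between 1 µM and IL1β alone and 31.5% between 10 µM and IL1β alone, with the same IL1β libraries in both. At least 2-fold, 530 genes were higher and 145 lower at 10 µM, and this excess lay at low levels. Under a mean of 2 CPM over the 4 libraries, 300 were higher and 63 lower by 2-fold, and at 2 to 10 CPM 179 and 42. At 10 to 50 CPM the numbers were 42 and 25, and above 50 CPM 9 and 15. The 2 libraries of 1 dose lay entirely above or below those of the other for 4258 of the 4262 called genes, and for 61.2% of all tested genes. The balance of directions depended on scaling: 50.9% of calls were lower with TMM factors, 33.0% with library totals alone (1389 lower, 2826 higher) and 67.6% with offsets for transcript length and GC content (3611 lower, 1733 higher). These scalings moved the median log2 difference of all genes to 0.0842 with library totals and -0.0629 with the offsets, against 0.011 with TMM, so small differences are relative to the scaling chosen. Leaving out replicate 1 or 2 at 10 µM gave 1330 or 1329 higher and 1338 or 1393 lower genes, and leaving out replicate 1 at 1 µM gave 1389 higher genes.

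**Figure D1:**
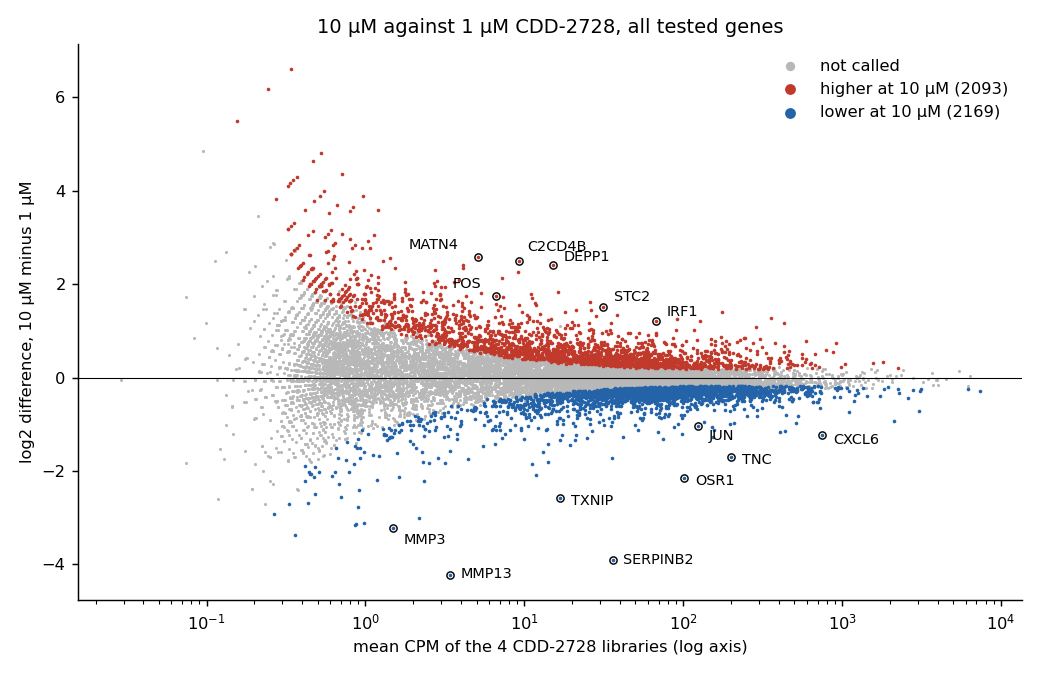
Log2 difference (10 µM minus 1 µM CDD-2728, both with IL1β) of each tested gene against its mean CPM over the 4 libraries on a log axis, with called genes coloured by direction. The 530 genes at least 2-fold higher lie mostly at low levels, and the genes lower at 10 µM lie mostly at high levels.

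JUN, the gene for the AP-1 subunit that JNK phosphorylates, and a group of genes that IL1β raised fell in 2 steps. JUN (chr1:58780788-58784327, minus strand, hg38) had 308 and 325 CPM with IL1β alone, 165 and 169 CPM at 1 µM and 76.6 and 86.7 CPM at 10 µM. Vehicle cells had 133 and 146 CPM, so JUN at 10 µM lay below its level without IL1β, and no libraries of the 3 doses overlapped. The log2 difference of 10 minus 1 µM was -1.03 ± 0.07 (SE, adjusted p = 1.07e-09).
HBEGF, an EGF receptor ligand, had 150 and 155 CPM with IL1β alone, 48.8 and 50.6 CPM at 1 µM and 27.2 and 28.0 CPM at 10 µM (log2 difference of the doses -0.85 ± 0.09, adjusted p = 1.9e-07). DUSP8, a phosphatase that acts on JNK and p38, had 4.27 and 5.50 CPM at 10 µM and 15.9 and 19.3 CPM at 1 µM, a 3.61-fold lower level (log2 -1.85 ± 0.15, adjusted p = 5.28e-09). Both genes had already lost most of their IL1β level at 1 µM: the log2 difference of 1 µM from IL1β alone was -1.62 for HBEGF and -1.76 for DUSP8. FILIP1L fell by equal steps, with log2 differences of -1.31 for 1 µM minus IL1β and -1.32 ± 0.07 for 10 minus 1 µM (adjusted p = 1.74e-11). Its libraries had 254 and 273 CPM with IL1β alone, 106 and 105 CPM at 1 µM and 42.8 and 41.8 CPM at 10 µM.

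The JNK genes themselves were not called between the doses where they were well measured. MAPK8, which encodes JNK1, had 34.8 and 33.1 CPM at 10 µM and 33.7 and 32.5 CPM at 1 µM, a log2 difference of 0.04 with a 95% interval of -0.16 to 0.23. MAPK9, which encodes JNK2, had 57.5 and 56.8 CPM at 10 µM and 59.7 and 66.6 CPM at 1 µM, an interval of -0.31 to 0.02. MAPK10, for the mainly neuronal JNK3, was called higher (2.78 and 2.27 CPM at 10 µM, 1.41 and 0.865 CPM at 1 µM, log2 1.14 ± 0.37, adjusted p = 0.0213), but the call was lost with DESeq2, without replicate 1 at 10 µM and without replicate 2 at 1 µM (adjusted p up to 0.153). Of 29 JNK, p38 and ERK route kinases tested, 7 were higher and 2 lower, a share of 24.1% higher. With length and GC offsets, 5 were higher and 12 lower, so no direction is given for this family.

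**Figure D2:**
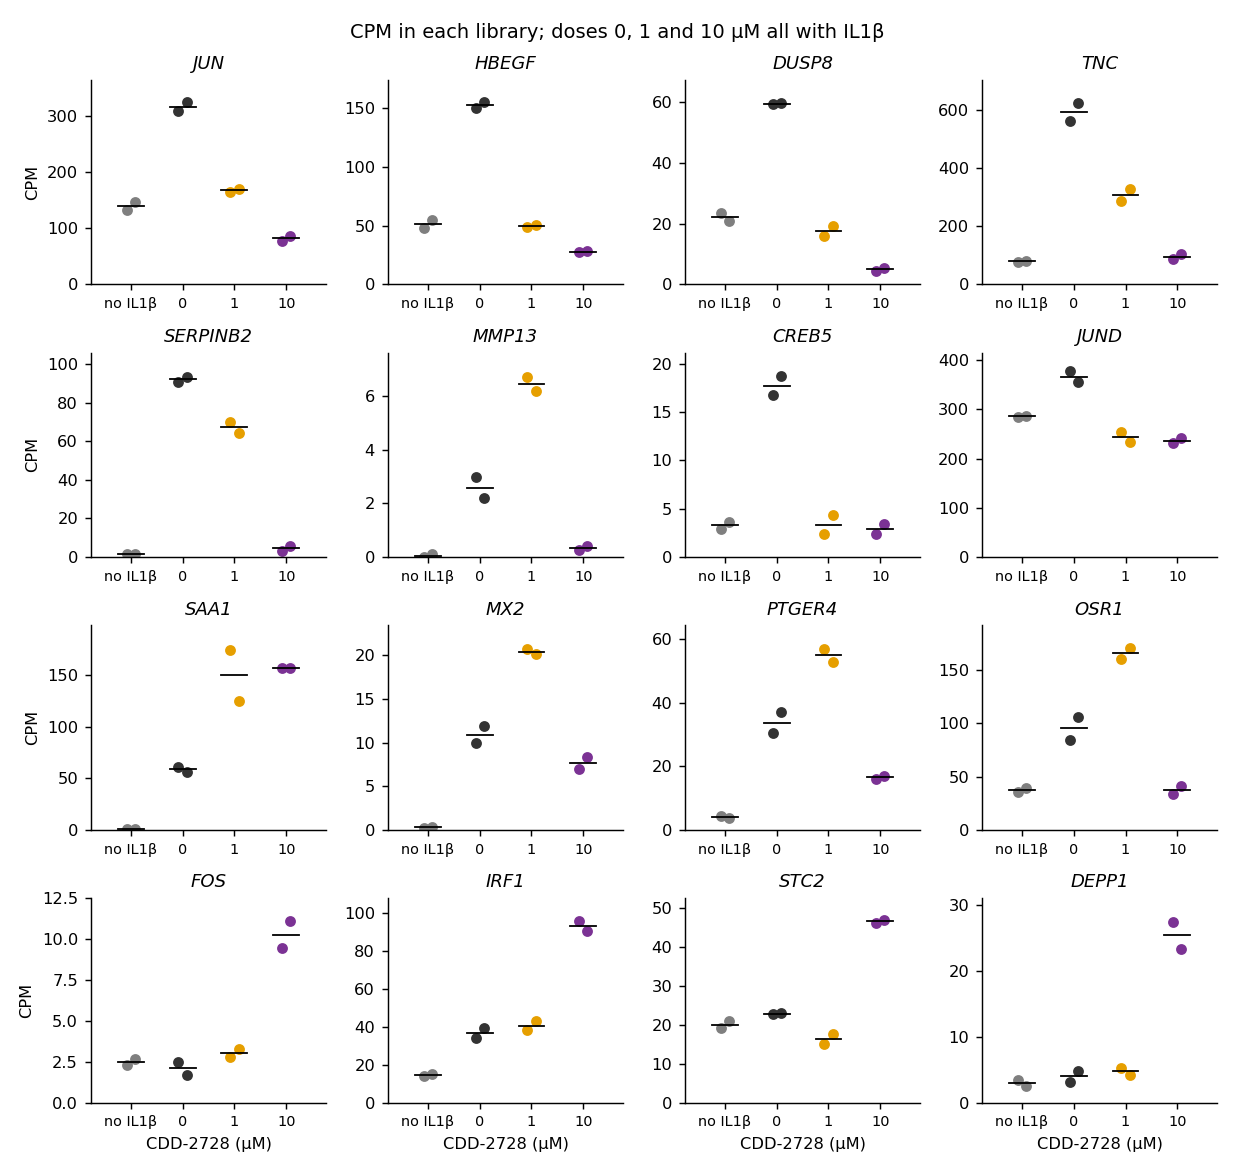
CPM of 16 genes in each library (points, with a bar at the mean of 2) without IL1β and with IL1β at 0, 1 and 10 µM CDD-2728, on linear axes with 1 scale per panel. JUN, HBEGF, DUSP8 and TNC step down at each dose, CREB5 and JUND are level between 1 and 10 µM, MX2, PTGER4 and OSR1 are highest at 1 µM, and FOS, IRF1, STC2 and DEPP1 are high at 10 µM.

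The dose classes were read from 3 differences of 1 fit: 1 µM minus IL1β, 10 µM minus IL1β and 10 minus 1 µM. The 1 µM libraries enter the first and the third with opposite signs, so their error alone can make a gene look turned and can hide a second step. A gene was counted as held from 1 µM where it was called against IL1β at 1 µM and the 95% interval of 10 minus 1 µM lay within ±0.5 on the log2 scale, that is within 1.41-fold. There were 368 held genes, 143 higher and 225 lower than IL1β alone, and 90 of them still had a called step inside that margin. A further 253 genes were called again in the same direction at 10 µM (108 higher, 145 lower), and 62 of these were also within the held margin, as were 28 of the turned genes described below. The margin was passed narrowly by DHX33, whose interval reached 0.4988, and missed narrowly by QSER1, at 0.5007.
In the class of 10 µM only, 2214 genes were called both against 1 µM and against IL1β in 1 direction, with an interval of 1 µM minus IL1β inside the same margin. They were 880 higher and 1334 lower genes, of which 79 also had a small called difference at 1 µM and 2135 did not. Most of these steps were small, with a median log2 difference of 0.4435 among the higher and -0.361 among the lower genes, and 50 reached 2-fold, 30 higher and 20 lower. PAN2 lay just inside this margin, at 0.4995, and H2BC5 just outside, at 0.5006. Another 726 genes had a called step at 10 µM but too wide an interval at 1 µM to be placed, 586 of them higher.
Finally, 126 genes turned, being called at 1 µM in 1 direction and between the doses in the other (52 higher and 74 lower at 10 than at 1 µM). Of these, 92 were no longer called against IL1β at 10 µM, 24 were called on the opposite side of IL1β, and 10 were still called on the same side. Of 62 genes at least 2-fold from IL1β at 1 µM, 1 was held (SAA1), 20 went further and 14 turned. The other 27 had no called step but intervals too wide for the held class, with a median log2 difference between the doses of 0.0396.

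The class sizes leaned on single libraries more than the dose difference did. Held genes numbered 126 without replicate 1 and 672 without replicate 2 of 1 µM, and 87 or 139 without replicate 1 or 2 of IL1β alone. Turned genes numbered 49 and 540 without replicate 1 and 2 of 1 µM, 78 without replicate 1 of 10 µM, and 37 and 55 without replicate 1 and 2 of IL1β. Genes that went further numbered 135 without replicate 1 of 1 µM and 104 and 124 without replicate 1 and 2 of IL1β. The class of 10 µM only had 1464 and 1384 genes without replicate 1 and 2 of 10 µM and 1418 and 1376 without replicate 1 and 2 of IL1β. It was the largest class under each of these omissions.

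**Figure D3:**
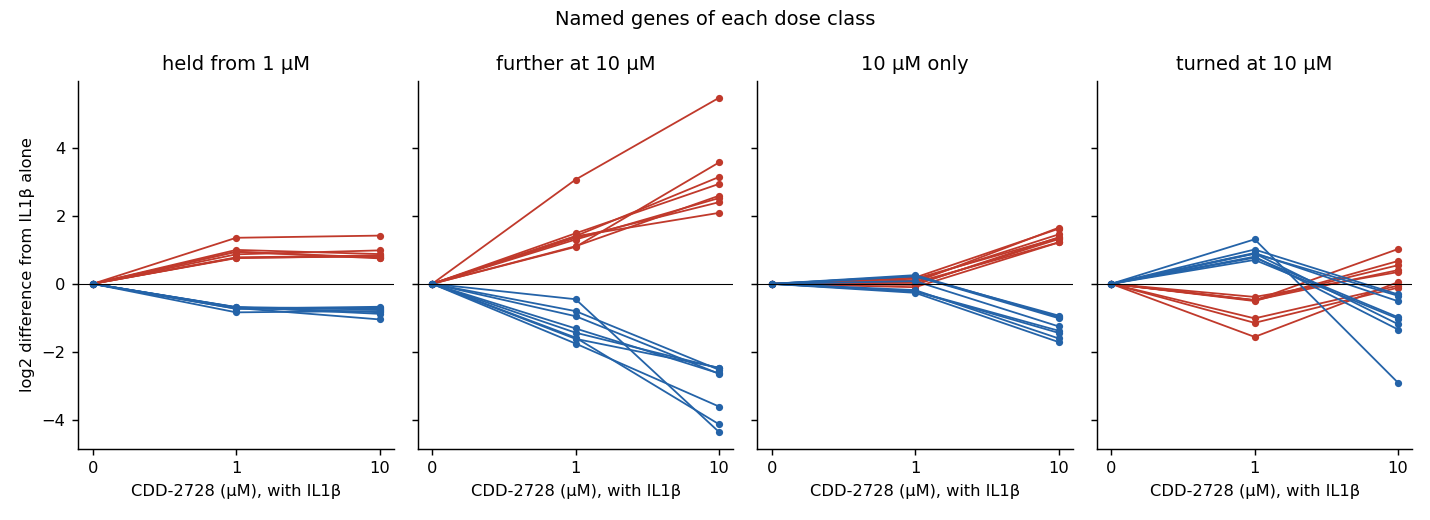
Log2 difference from IL1β alone at 0, 1 and 10 µM CDD-2728 for the genes named in each class, the 8 largest per direction where as many passed the naming rule, red or blue by direction. Held genes are level from 1 to 10 µM, genes that went further continue in 1 direction, genes of 10 µM only leave 0 after 1 µM, and turned genes come back towards or across 0.

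Held genes included an AP-1 subunit, an acute phase gene and genes of cell shape. JUND, a JUN relative, had 377 and 355 CPM with IL1β alone, 254 and 233 CPM at 1 µM and 231 and 241 CPM at 10 µM. The CDD-2728 libraries overlapped each other and lay below all IL1β libraries, with a log2 difference between the doses of -0.05 and a 95% interval of -0.18 to 0.09. DCBLD2, a membrane receptor, was similar in shape, with 257 and 239 CPM at 10 µM, 233 and 264 CPM at 1 µM and an interval of -0.15 to 0.15. SAA1, which encodes the acute phase protein serum amyloid A, was held on the other side: 60.8 and 56.5 CPM with IL1β alone, 175 and 125 CPM at 1 µM and 157 and 157 CPM at 10 µM (interval of the dose difference -0.17 to 0.30). SAA1 and its near-identical neighbour SAA2 can share reads, so their split is uncertain, and SAA2 was called higher at 10 µM (125 and 116 CPM, against 75.6 and 74.0 CPM at 1 µM). PLA2G4A, the phospholipase that frees arachidonic acid for prostaglandins, was held, with 16.95 and 16.01 CPM with IL1β alone, 26.0 and 30.3 CPM at 1 µM and 26.3 and 31.4 CPM at 10 µM. LPAR1, a lysophosphatidic acid receptor, was held above IL1β, and FMNL2, MAP1B, CMTM3 and the transcription factor PAX8 were held below it. CREB5, an ATF-type partner of JUN, had 16.7 and 18.8 CPM with IL1β alone, 2.37 and 4.32 CPM at 1 µM and 2.40 and 3.41 CPM at 10 µM. Its dose libraries overlapped, but the interval of -0.75 to 0.35 was too wide for the held class at this depth.

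Some genes of matrix breakdown and clot breakdown had large falls, while the median log2 difference of their lists was small (-0.1092 for metalloproteinases, ADAMs and inhibitors and -0.0958 for plasminogen activation). SERPINB2, the plasminogen activator inhibitor PAI-2 (chr18:63871692-63903890, plus strand, hg38), had 90.6 and 93.6 CPM with IL1β alone, 70.0 and 64.5 CPM at 1 µM and 3.36 and 5.68 CPM at 10 µM, with 1.57 and 1.69 CPM in vehicle cells. It was 15.02-fold lower at 10 than at 1 µM (log2 -3.91 ± 0.16, adjusted p = 1.67e-13), so most of its fall came after 1 µM. PLAT, the tissue-type plasminogen activator that PAI-2 inhibits, fell as well, with a log2 difference of -0.87 ± 0.08. Of 12 genes of plasminogen activation tested, 4 were lower and 1 higher, 33.3% lower beside 13.8% of all genes.
The collagenases and stromelysins, whose genes lie together on chromosome 11, were low but well separated. MMP1 (chr11:102789920-102798160, minus strand) had 7.10 and 5.98 CPM at 10 µM and 20.4 and 19.0 CPM at 1 µM (log2 -1.59 ± 0.15, adjusted p = 4.76e-08). MMP3 (chr11:102835801-102843803, minus strand) had 0.267 and 0.299 CPM at 10 µM and 2.20 and 3.21 CPM at 1 µM, that is 10 and 91 counts in all (log2 -3.22 ± 0.55, adjusted p = 1.68e-05). MMP13 (chr11:102942995-102955734, minus strand) had 0.267 and 0.418 CPM at 10 µM and 6.71 and 6.18 CPM at 1 µM, 12 and 219 counts in all, and was 18.7-fold lower (log2 -4.22 ± 0.47, adjusted p = 1.3e-08). MMP13 was called above IL1β at 1 µM (log2 1.31) and below it at 10 µM (log2 -2.91). MMP1 and MMP3 were not called at 1 µM. MMP10 was called lower too (log2 -2.70 ± 1.07, adjusted p = 0.0252), but not with DESeq2, without replicate 2 at 10 µM or without replicate 1 at 1 µM (adjusted p up to 0.329). Of 28 metalloproteinases, ADAMs and their inhibitors tested, 11 were lower and 3 higher (39.3% lower). Among the lower ones were the aggrecanase-type genes ADAMTS1 and ADAMTS5 (log2 -0.87 and -0.86) and the inhibitor TIMP1 (log2 -0.40), so both proteases and inhibitors moved. Without replicate 2 at 1 µM, 10 were lower and 5 higher.

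Single matrix and growth factor genes fell as well, though their lists, counted further on, were mixed. TNC, the matrix glycoprotein tenascin C, had 562 and 623 CPM with IL1β alone, 285 and 327 CPM at 1 µM and 87.0 and 102 CPM at 10 µM, close to the 77.5 and 79.3 CPM of vehicle cells. The dose difference was -1.70 ± 0.08 on the log2 scale (adjusted p = 5.59e-12). INHBA, the activin A subunit, had 6.30 and 6.22 CPM at 10 µM and 20.01 and 24.2 CPM at 1 µM (log2 -1.82 ± 0.14, adjusted p = 3.58e-09), and TGFB2, a TGF-β ligand, fell by 1.00 ± 0.12 on the log2 scale.
FGF2, an angiogenic growth factor, belonged to the class of 10 µM only. It had 639 and 559 CPM with IL1β alone, 574 and 635 CPM at 1 µM and 280 and 269 CPM at 10 µM (1 µM minus IL1β, log2 0.01, adjusted p = 0.96). PDGFB, VEGFC and FGF7 were also lower at 10 µM, by 1.04 ± 0.13, 0.64 ± 0.08 and 0.89 ± 0.12 in log2 size. VEGFA, the main endothelial growth factor, went the other way, with 104 and 114 CPM at 10 µM and 63.0 and 69.1 CPM at 1 µM (log2 0.73 ± 0.08, adjusted p = 6.19e-07). Of 15 angiogenic growth factors tested, 7 were lower and 3 higher (46.7% lower).
KDR, the VEGF receptor and an endothelial marker, was higher at 10 µM (49.7 and 42.6 CPM, against 23.7 and 21.9 CPM at 1 µM). The 6 tested of 10 endothelial markers summed to 66.0 and 60.0 CPM at 10 µM and 38.2 and 38.9 CPM at 1 µM, most of it KDR, while PECAM1 averaged 0.344 CPM over the 4 libraries.

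Chemokine genes divided by dose and by member. CXCL8, the main neutrophil attractant, fell at both doses: 1005 and 915 CPM with IL1β alone, 712 and 647 CPM at 1 µM and 353 and 411 CPM at 10 µM (log2 difference of the doses -0.83 ± 0.12, adjusted p = 0.000214). CXCL6, another CXCR2 ligand, moved only at 10 µM, with 424 and 470 CPM at 10 µM and 1089 and 1016 CPM at 1 µM (log2 -1.24 ± 0.07, adjusted p = 7.05e-11). CXCL1, of the same family, was called above IL1β alone at 1 µM and below it at 10 µM: 740 and 699 CPM with IL1β alone, 898 and 868 CPM at 1 µM and 548 and 580 CPM at 10 µM.
CXCL2, encoded near CXCL1, went up at 10 µM (238 and 246 CPM, against 142 and 152 CPM at 1 µM, log2 0.72 ± 0.08, adjusted p = 3.28e-07). CCL7 and CCL5, which attract monocytes and T cells, fell between the doses by 1.33 ± 0.14 and 0.98 ± 0.14 in log2 size. CXCL10, the interferon-inducible T cell attractant, was above IL1β alone at both doses but lower at 10 µM, with 23.4 and 23.9 CPM against 39.6 and 35.3 CPM at 1 µM. CCL2 was called higher at 10 µM (489 and 560 CPM, against 438 and 384 CPM, log2 0.35 ± 0.08, adjusted p = 0.00212), a call lost without replicate 2 at 10 µM (adjusted p = 0.0733). Of 16 chemokine genes tested, 7 were lower and 2 higher (43.8% and 12.5%), and without that library 1 was higher.

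Cytokine genes also split. IL24 had 0.747 and 0.897 CPM at 10 µM and 4.45 and 3.21 CPM at 1 µM (log2 -2.22 ± 0.38, adjusted p = 6.04e-05), and IL11 fell by 0.79 ± 0.11 in log2 size. LIF, an IL6-family cytokine, had 512 and 555 CPM at 10 µM and 314 and 349 CPM at 1 µM (log2 0.68 ± 0.07, adjusted p = 2.32e-07). IL6 was held, with 84.5 and 71.5 CPM with IL1β alone, 101 and 113 CPM at 1 µM, 102 and 103 CPM at 10 µM and a dose interval of -0.24 to 0.10. Of 20 cytokine and receptor genes tested, 7 were lower and 3 higher (35.0% lower).
Among the adhesion molecules that IL1β induces, ICAM1 rose and VCAM1 fell. ICAM1 had 795 and 799 CPM at 10 µM and 557 and 559 CPM at 1 µM, and VCAM1 287 and 320 CPM at 10 µM and 439 and 438 CPM at 1 µM. Their log2 differences were 0.51 ± 0.06 (adjusted p = 3.57e-06) and -0.53 ± 0.07 (adjusted p = 1.04e-05).

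NF-κB feedback genes were more often higher at 10 µM. NFKB2, a precursor subunit, had 744 and 755 CPM at 10 µM and 427 and 440 CPM at 1 µM (log2 0.79 ± 0.06, adjusted p = 7.28e-09). NFKBIA, which encodes the inhibitor IκBα, had 381 and 387 CPM at 10 µM and 254 and 237 CPM at 1 µM (log2 0.65 ± 0.08, adjusted p = 1.59e-06), and BCL3 rose by 0.72 ± 0.08. TRAF1, an adaptor of TNF receptors, fell at both doses, with 10.6 and 11.5 CPM at 10 µM and 21.9 and 19.9 CPM at 1 µM. TNFAIP3, the deubiquitinase A20, was not called between the doses (610 and 604 CPM at 10 µM, 599 and 703 CPM at 1 µM, interval -0.25 to 0.05). Of 27 genes tested, 12 were higher and 4 lower (44.4% and 14.8%), but 9 and 9 with length and GC offsets, so the direction of the group holds only without them.
Acute phase genes were raised at both doses. Of 19 tested, 14 were called above IL1β alone at 1 µM and 16 at 10 µM, beside 319 and 2454 of all 15740 genes. Between the doses, 9 of the 19 were higher and 2 lower at 10 than at 1 µM (47.4% and 10.5%). SOCS3, the feedback inhibitor of STAT3 signalling, had 115 and 125 CPM with IL1β alone, 213 and 203 CPM at 1 µM and 482 and 522 CPM at 10 µM (log2 between the doses 1.27 ± 0.07, adjusted p = 1.74e-11). CEBPB and CEBPD, transcription factors of the acute phase, rose by 0.59 ± 0.07 and 0.74 ± 0.11 on the log2 scale. C3 and LCN2 were the 2 that fell, by 0.41 ± 0.07 and 0.73 ± 0.15, and neither was called against IL1β at 10 µM.

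Interferon-stimulated genes were the clearest turned group. Of 41 tested, 17 were called above IL1β alone at 1 µM and none below, beside 2.03% and 2.57% of all genes. Between the doses, 28 of the 41 were then lower and 1 higher at 10 µM (68.3% and 2.44%), beside 13.8% and 13.3% of all genes. At 10 µM 8 were above and 12 below IL1β alone, beside 2454 and 2504 of all 15740 genes. By the class rule 14 of the 41 turned and 4 were held, beside 0.801% and 2.34% of all genes. This turned count was read with all libraries only. The number lower ranged from 19 (without replicate 1 at 1 µM) to 31 over the other settings tried, apart from a test against a minimum difference.
MX2, an antiviral GTPase, had 9.90 and 11.9 CPM with IL1β alone, 20.7 and 20.2 CPM at 1 µM and 6.94 and 8.37 CPM at 10 µM. Its 10 µM libraries were below and its 1 µM libraries above both IL1β libraries, and the dose difference was -1.42 ± 0.15 on the log2 scale (adjusted p = 2.94e-07). MX1 followed the same order: 152 and 167 CPM with IL1β alone, 215 and 194 CPM at 1 µM and 96.2 and 101 CPM at 10 µM. IFIT1, which binds viral RNA, had 32.2 and 32.8 CPM at 10 µM and 76.2 and 65.7 CPM at 1 µM (log2 -1.13 ± 0.11, adjusted p = 2.66e-07).
OAS2, an antiviral enzyme, went back to the level of IL1β alone at 10 µM (13.3 and 11.7 CPM, against 30.2 and 28.8 CPM at 1 µM). IFIT2 was held instead, with 18.8 and 23.4 CPM at 10 µM, 22.2 and 25.3 CPM at 1 µM and a dose interval of -0.44 to 0.10.
IRF1, a transcription factor that both interferon and NF-κB induce, was the 1 member that rose. It had 95.9 and 90.6 CPM at 10 µM and 38.3 and 42.9 CPM at 1 µM (log2 1.20 ± 0.09, adjusted p = 1.73e-09), and at 1 µM it was not called against IL1β alone.

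Genes outside the antiviral list turned in the same way. PTGER4, the prostaglandin E2 receptor EP4, had 30.4 and 37.1 CPM with IL1β alone, 56.9 and 52.8 CPM at 1 µM and 16.1 and 17.0 CPM at 10 µM (log2 between the doses -1.73 ± 0.11, adjusted p = 1.32e-10). PTGER3, the receptor EP3, moved oppositely and only at 10 µM, with 16.7 and 19.6 CPM at 10 µM and 7.05 and 7.17 CPM at 1 µM (log2 1.35 ± 0.16, adjusted p = 1.13e-06). PTGS2, the cyclooxygenase that makes the prostaglandin precursor, was higher at 10 µM (86.2 and 107 CPM, against 72.4 and 82.6 CPM, log2 0.32 ± 0.10, adjusted p = 0.0195), but not without replicate 2 at 10 µM or replicate 1 at 1 µM (adjusted p up to 0.375).
OSR1, a zinc finger transcription factor, had 84.3 and 106 CPM with IL1β alone, 161 and 171 CPM at 1 µM and 34.0 and 41.1 CPM at 10 µM, with 35.4 and 39.0 CPM in vehicle cells. Its dose difference of -2.14 ± 0.10 (log2, adjusted p = 2.85e-11) took it to the vehicle range. TNFSF18, the TNF family ligand GITRL, had 4.43 and 4.603 CPM at 10 µM and 18.5 and 19.7 CPM at 1 µM (log2 -2.08 ± 0.16, adjusted p = 3.15e-09). In the other direction, STC2, a secreted glycoprotein induced by cell stress, had 22.6 and 23.0 CPM with IL1β alone, 15.1 and 17.5 CPM at 1 µM and 46.0 and 46.9 CPM at 10 µM (log2 1.51 ± 0.10, adjusted p = 5.43e-10).

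While JUN fell, several other AP-1 and early response genes were higher at 10 than at 1 µM, though not all of them above IL1β alone. FOS had 2.52 and 1.70 CPM with IL1β alone, 2.82 and 3.27 CPM at 1 µM and 9.45 and 11.1 CPM at 10 µM (log2 between the doses 1.75 ± 0.21, adjusted p = 1.47e-06). JUNB had 200.6 and 248.9 CPM at 10 µM and 134 and 112 CPM at 1 µM (log2 0.86 ± 0.10, adjusted p = 8.69e-06). ATF3 was called higher (24.1 and 27.4 CPM, against 19.0 and 18.3 CPM at 1 µM, log2 0.46 ± 0.11, adjusted p = 0.00396), but not without replicate 2 at 10 µM (adjusted p = 0.0797).
Of 18 AP-1 and related genes tested, 9 were higher and JUN was the 1 lower (5.56% lower), beside 13.3% and 13.8% of all genes. Against IL1β alone, none of the 18 was higher and 6 were lower at 1 µM, beside 319 and 404 of all 15740 genes. At 10 µM 7 were higher and 6 lower than IL1β alone, beside 2454 and 2504 of all genes. FOSL1, with 59.8 and 79.0 CPM at 10 µM and 52.3 and 63.1 CPM at 1 µM, was not called between the doses (interval -0.08 to 0.62). Of 18 early response factors, none was higher and 3 were lower than IL1β alone at 1 µM, and 9 higher and 3 lower at 10 µM. Between the doses 9 of them were higher and 1 lower (5.56% lower), beside 13.3% and 13.8% of all genes. Among the higher ones were NR4A1 (log2 1.23 ± 0.20), an orphan nuclear receptor, and MYC (0.60 ± 0.09), while EGR1 was not called at 1.01 and 1.49 CPM, against 1.35 and 1.61 CPM at 1 µM.
Some genes that the ERK kinase route induces as its own inhibitors were higher too. SPRY4 had 37.7 and 40.2 CPM at 10 µM and 12.2 and 13.3 CPM at 1 µM, a 3.05-fold higher level (log2 1.61 ± 0.14, adjusted p = 1.98e-08). DUSP5, an ERK phosphatase, had 23.8 and 28.2 CPM at 10 µM and 9.30 and 10.4 CPM at 1 µM (log2 1.40 ± 0.14, adjusted p = 1.87e-07), and DUSP6 rose by 1.24 ± 0.14. ETV5, an ETS factor downstream of ERK, had 41.2 and 39.9 CPM at 10 µM and 15.4 and 17.2 CPM at 1 µM (log2 1.32 ± 0.12, adjusted p = 3.21e-08). None of SPRY4, DUSP5, DUSP6 and ETV5 was called at 1 µM. Of 16 MAPK phosphatases and Sprouty family genes tested, 5 were higher (31.2% beside 13.3% of all genes), DUSP8, shown above, was the 1 lower, and the others were not called. Against IL1β alone, none of the 16 was higher and 4 were lower at 1 µM, and 4 were higher and 5 lower at 10 µM. DUSP1 was not called between the doses (135 and 136 CPM at 10 µM, 106 and 119 CPM at 1 µM, adjusted p = 0.0848).

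Stress response genes were the list with most members higher at 10 µM. Of 30 genes of the integrated stress and unfolded protein responses tested, 20 were higher and 2 lower (66.7% and 6.67%), and 15 were in the class of 10 µM only. ATF4, the transcription factor of the integrated stress response, had 297 and 296 CPM with IL1β alone, 300 and 261 CPM at 1 µM and 474 and 467 CPM at 10 µM (log2 between the doses 0.75 ± 0.07, adjusted p = 6.64e-08). Its targets CHAC1 and PSAT1, a glutathione-degrading and a serine synthesis enzyme, rose by 1.34 ± 0.13 and 0.81 ± 0.08 on the log2 scale.
DDIT4, an inhibitor of mTORC1, averaged 256 ± 23.7 CPM at 10 µM and 96.9 ± 13.3 CPM at 1 µM (SD, n = 2 each, log2 1.40 ± 0.13), and PPP1R15A, a feedback phosphatase subunit, 110 ± 10.6 CPM at 10 µM and 61.4 ± 0.0281 CPM at 1 µM. The chaperone HSPA5, the usual marker of the unfolded protein response, was not among the called genes. The number higher was 17 to 20 over the other settings, apart from the minimum difference.
Targets of the tumour suppressor p53 overlapped this group in SESN2. Of 24 tested, 11 were higher and 1 lower (45.8% and 4.17%), including GDF15, a stress-induced TGF-β relative, with 32.6 and 37.8 CPM at 10 µM and 18.2 and 16 CPM at 1 µM (log2 1.04 ± 0.12, adjusted p = 1.77e-06). BBC3, the cell death gene PUMA, had 21.5 and 22.9 CPM at 10 µM and 12.57 and 10.996 CPM at 1 µM (log2 0.91 ± 0.13), and the cell cycle inhibitor CDKN1A rose by 0.53 ± 0.07, but MDM2, a standard p53 target, was not called.

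Targets of FOXO factors and clock output genes rose too, with 1 large exception. DEPP1, a FOXO target, had 27.5 and 23.4 CPM at 10 µM and 5.30 and 4.26 CPM at 1 µM, a 5.30-fold higher level (log2 2.41 ± 0.18, adjusted p = 1.73e-09). KLF9, a transcription factor, had 39.4 and 42.0 CPM with IL1β alone, 57.9 and 61.2 CPM at 1 µM and 119 and 123 CPM at 10 µM (log2 between the doses 1.02 ± 0.08, adjusted p = 8.75e-09). TXNIP, an α-arrestin that responds to glucose, fell instead: 18.8 and 25.2 CPM with IL1β alone, 30.1 and 27.2 CPM at 1 µM and 4.54 and 5.14 CPM at 10 µM (log2 -2.57 ± 0.19, adjusted p = 1.44e-08).
Of 17 genes of this list tested, 11 were higher and 2 lower, TXNIP and its relative ARRDC4, and 7 were higher without replicate 1 at 10 µM. With all libraries, 64.7% of the FOXO list were higher and 11.8% lower, beside 13.3% and 13.8% of all genes. Of 14 circadian genes, 7 were higher and 1 lower (7.14% lower), beside the same shares of all genes. Among the higher ones were the nuclear receptor NR1D1, with 14.3 and 14.4 CPM at 10 µM and 5.86 and 6.80 CPM at 1 µM (log2 1.18 ± 0.15, adjusted p = 5.32e-06), and PER1 (log2 0.76 ± 0.10).
SLC7A8, an amino acid transporter, had 16.6 and 13.7 CPM at 10 µM and 2.54 and 3.83 CPM at 1 µM (log2 2.26 ± 0.20, adjusted p = 1.43e-08). C2CD4A and C2CD4B, neighbouring genes induced by inflammatory cytokines, rose at both doses. C2CD4A had 5.15 and 4.77 CPM with IL1β alone, 13.9 and 14.0 CPM at 1 µM and 36.5 and 40.0 CPM at 10 µM, and C2CD4B had 14.7 and 16.5 CPM at 10 µM and 2.20 and 3.40 CPM at 1 µM. Their log2 differences between the doses were 1.45 ± 0.12 and 2.49 ± 0.21.

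Genes of mitosis were lower at 10 µM, by modest amounts. Of 26 tested, 19 were lower and 1 higher (73.1% and 3.85%), with a median log2 difference of -0.2904 beside 0.011 for all genes. In bulk libraries such as these, fewer cells of a kind, here cells in mitosis, and less RNA per cell cannot be told apart. AURKA, the mitotic kinase Aurora A, had 210 and 212 CPM with IL1β alone, 260 and 232 CPM at 1 µM and 161 and 139 CPM at 10 µM (log2 -0.72 ± 0.07, adjusted p = 2.66e-07). BUB1, a spindle checkpoint kinase, had 87.4 and 78.9 CPM at 10 µM and 119 and 118 CPM at 1 µM (log2 -0.51 ± 0.07), and the spindle factor TPX2 fell by 0.46 ± 0.06. CDC25B, the phosphatase that starts mitosis, was the member that rose (log2 0.44 ± 0.07). The number lower was 12 without replicate 2 at 10 µM, 12 without replicate 1 at 1 µM, 13 with library totals and up to 23 in other settings. Against a minimum log2 difference of 0.5, only 1 mitosis gene was called lower. DNA replication genes moved less, with 9 of 28 lower and 1 higher (32.1% and 3.57%), the largest call being CDK6 (log2 -0.65 ± 0.10).
Of 24 genes of cholesterol synthesis and uptake, 11 were lower and none higher (45.8% and 0.0%), with HMGCS1, the synthase that feeds the pathway, at 442 and 362 CPM at 10 µM and 585 and 556 CPM at 1 µM (log2 -0.50 ± 0.09, adjusted p = 0.000201). The number lower was 5 without replicate 2 at 10 µM and 7 without replicate 1 at 1 µM, and 2 were higher with library totals. Heat shock genes gave no stable count: 6 of 17 were lower, but 1 without replicate 1 at 1 µM, 2 without replicate 2 at 10 µM and 11 with the offsets. HSPA1A and HSPA1B, near-identical copies whose reads cannot be divided safely, both rose, by 0.58 ± 0.06 and 0.52 ± 0.07.

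**Figure D4:**
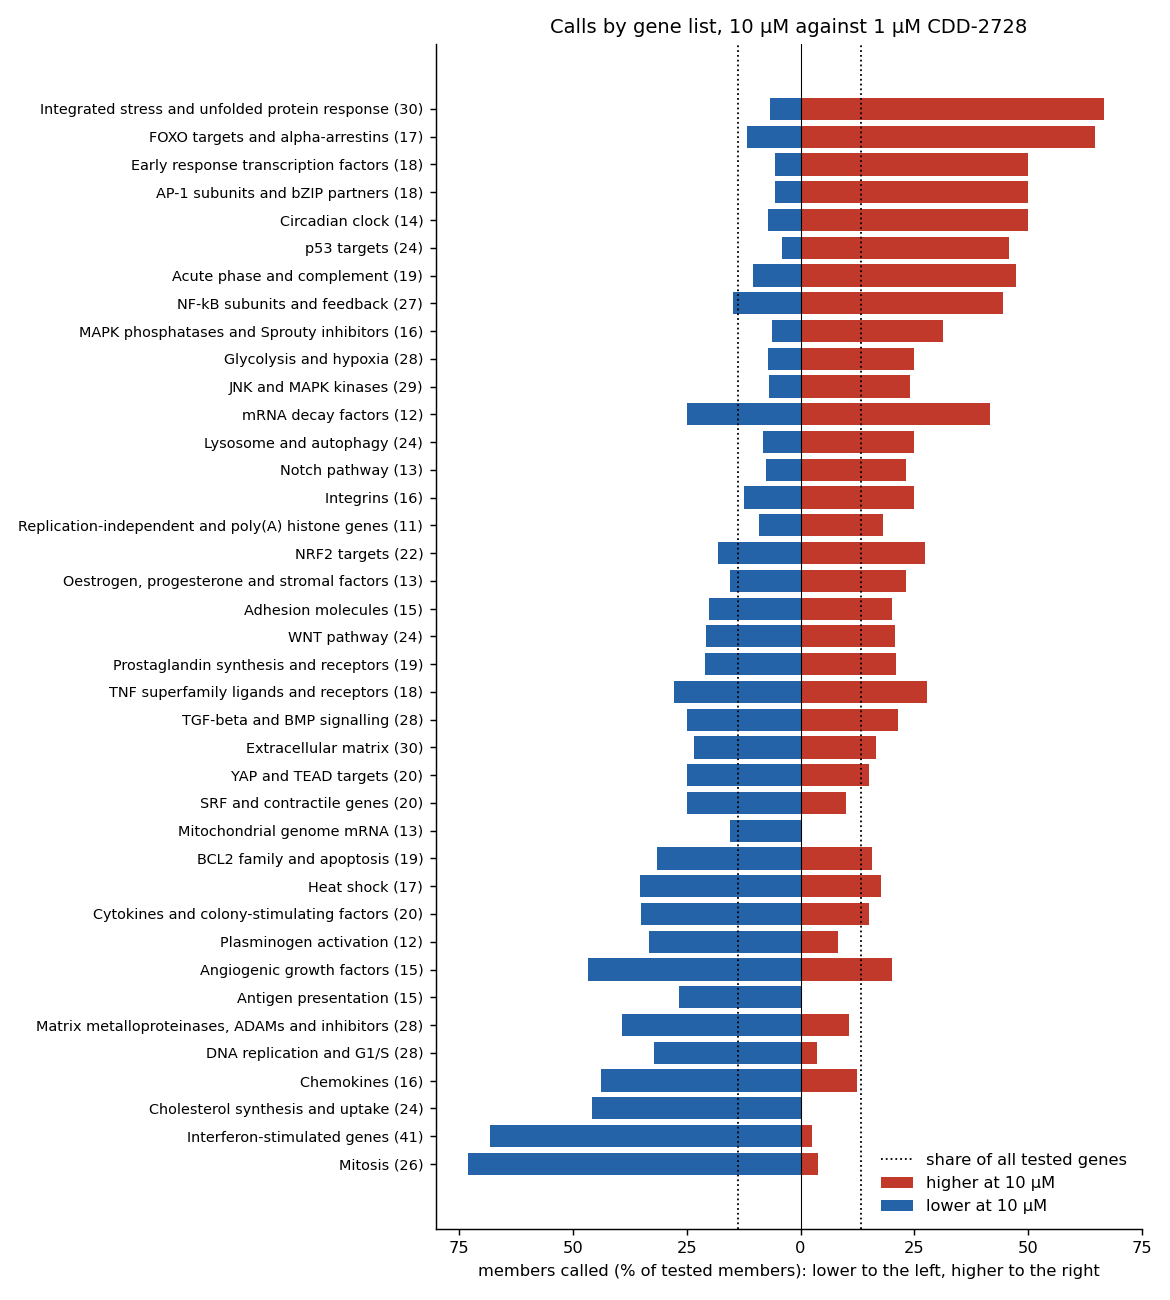
Share of tested members called higher (to the right) or lower (to the left) at 10 than at 1 µM for each gene list with at least 10 tested members, in percent, without the cell type markers and with dotted lines at the 13.3% and 13.8% of all tested genes. Integrated stress genes reach furthest to the right at 66.7%, and mitosis at 73.1% and interferon-stimulated genes at 68.3% reach furthest to the left.

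In several further lists calls went both ways in similar number, where 13.3% of all tested genes were higher and 13.8% lower. Of 30 extracellular matrix genes 5 were higher and 7 lower, of 28 TGF-β and BMP genes 6 and 7, of 24 WNT genes 5 and 5, of 18 TNF family genes 5 and 5, of 19 prostaglandin genes 4 and 4, of 22 NRF2 targets 6 and 4, of 20 YAP and TEAD targets 3 and 5, of 15 adhesion molecules 3 and 3, of 12 mRNA decay factors 5 and 3, and of 13 oestrogen, progesterone and stromal factors 3 and 2. Lists with more lower members were antigen presentation, with 4 lower and none higher of 15 (26.7% lower), SRF and contractile genes, with 2 higher and 5 lower of 20, and the BCL2 family and apoptosis, with 3 and 6 of 19. With library totals, SRF and contractile genes were 3 higher and 3 lower and the BCL2 family 4 and 4, so these directions depended on scaling. Lists with more higher members were glycolysis and hypoxia, with 7 higher and 2 lower of 28, lysosome and autophagy, with 6 and 2 of 24, integrins, with 4 and 2 of 16, and the Notch pathway, with 3 and 1 of 13. With length and GC offsets, glycolysis and hypoxia had 6 higher and 8 lower, lysosome and autophagy 3 and 4, and integrins 2 and 5. The Notch pathway had 3 and 2 with the offsets and 2 and 2 with the replicate block added. No direction is therefore given for these lists. Some other lists were short. Of 8 EGF receptor ligands and receptors 1 was higher and 2 lower, of 8 AHR targets 2 and 3, of 8 metallothioneins 1 and 0, and of 11 histone genes 2 and 1. The AHR targets were called more often than all tested genes in each direction, but on few genes. All 13 mitochondrial mRNAs were tested, and 2 were called, both lower and both in fewer than all settings. AJUBA, a LIM protein of the Hippo route, fell only at 10 µM, with 63.8 and 54.9 CPM at 10 µM and 137 and 140 CPM at 1 µM (log2 -1.22 ± 0.07, adjusted p = 7.05e-11). CYP1B1, a steroid- and xenobiotic-oxidising enzyme, had 252 and 255 CPM at 10 µM and 538 and 593 CPM at 1 µM (log2 -1.16 ± 0.07, adjusted p = 7.05e-11). AHR, the receptor that induces CYP1B1, was higher at 10 µM (53.8 and 46.4 CPM, against 25.4 and 29.2 CPM at 1 µM).
Of 10 tested epithelial markers 4 were lower, among them KRT8 and KRT7, and CLDN4 was higher, with the calls of all 3 lost in several settings, and of 8 mesothelial markers 2 were higher and 1 lower, LRRN4 with 317 and 323 CPM at 10 µM and 560 and 562 CPM at 1 µM. The part of such markers in the results above was not tested.

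The IL1β response itself shifted unevenly. IL1β alone raised 679 genes by at least 2-fold over vehicle (4.31% of those tested) and lowered 490 (3.11%). Of the raised genes, 205 (30.2%) were lower and 140 (20.6%) higher at 10 than at 1 µM, with a median log2 difference of -0.1018. Of the lowered genes, 140 (28.6%) were higher and 8 (1.63%) lower, with a median of 0.4354. Among the 14571 genes in neither set, 13.4% were lower and 12.4% higher, with a median of 0.0057. Falls of 2-fold or more were 76 of the raised genes, beside 31 such rises, so the higher dose moved raised genes both ways. The share of raised genes that were lower was similar at each strength of the IL1β response, with 29.9% of those raised 2- to 4-fold, 31.1% of those raised 4- to 16-fold and 29.5% of those raised at least 16-fold. Leaving out replicate 1 at 10 µM left 91 of the lowered genes higher, and library totals gave 271.

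**Figure D5:**
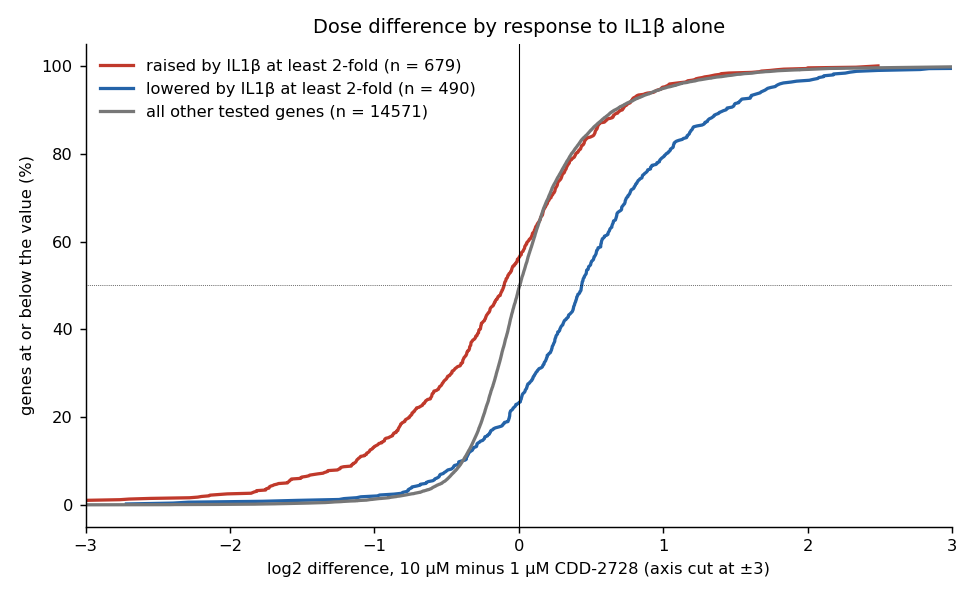
Cumulative share of genes (percent) by log2 difference of 10 minus 1 µM CDD-2728, for the 679 genes raised and the 490 genes lowered at least 2-fold by IL1β and for the 14571 other tested genes. The curve of lowered genes lies to the right, with a median of 0.4354, and the curve of raised genes is wider than that of the other genes and crosses them.

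The direction of the step also went with a gene's level and base composition. Of 3648 genes with a mean under 2 CPM over the 4 libraries, 304 were higher and 67 lower, while of 4594 genes above 50 CPM, 527 were higher and 1275 lower. Genes in the fifth with the most GC in their longest transcript (58.2 to 83.9%) were higher in 19.6% and lower in 8.65% of cases, and genes in the fifth with the least (23.1 to 41.0%) higher in 9.49% and lower in 16.5%. Long noncoding genes were higher in 97 and lower in 38 cases, and antisense genes in 67 and 17, although without a stated strand setting reads of a gene and its antisense partner cannot be told apart. The number of genes with at least 1 count was 24618 and 23705 at 10 µM and 22459 and 22773 at 1 µM, with 23851 and 22836 for IL1β alone. The part of composition in these shares was not tested, and the calls named above for JUN, SERPINB2, TNC, MMP1, CXCL6, MX2, IRF1, STC2 and SPRY4 held with the length and GC offsets and under every other setting run.

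Promoter letters were counted over the same windows as the sequences shown. TGANTCA was found on either strand in 6.6% of all 27305 RefSeq promoters and in 4.14% of the 11220 tested genes with a promoter in the table. Among genes at least 2-fold lower at 10 µM it was in 10 of 86 (11.6%), and among genes at least 2-fold higher in 18 of 332 (5.42%). Of the genes that IL1β raised, 43 of 454 (9.47%) held it, 16 of the 146 lower and 6 of the 112 higher at 10 µM among them. TGACATCA was in 5 of 86 genes (5.81%) at least 2-fold lower, beside 1.27% of tested genes and 2.45% of all promoters. TGACGTCA was in 1 of the same 86 (1.16%), beside 2.92% of tested genes and 1.77% of all promoters. Of the 2169 lower genes, 1758 had a promoter in the table and 72 of these (4.1%) held TGANTCA. These shares are descriptions of letters within 250 bases, made without a test.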

How the data were processed

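RNA of 12Z cells was sequenced from poly(A)-selected libraries, per the labels' protocols, in 5 groups of 2 libraries. The authors deposited 1 table of raw counts per gene for all 10 libraries. Per the submitters' processing notes, the tools were fastp, STAR and featureCounts and the build hg38. No version, annotation release or strand setting of counting was given in the sources used here. Gene coordinates are from GENCODE 29, and promoter sequences are from RefSeq.

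From these counts, genes with too few reads were removed by filterByExpr (minimum count 10), which left 15740 genes, and TMM factors were applied. All 10 libraries entered 1 robust quasi-likelihood fit in edgeR 4.0.16 (limma 3.58.1, R 4.3.3), with 5 residual degrees of freedom for the shared spread and a common biological coefficient of variation of 0.0604. The contrasts were 10 minus 1 µM CDD-2728, each dose minus IL1β, and IL1β minus vehicle. P-values were adjusted by Benjamini-Hochberg over all tested genes and called below 0.05, and intervals are 95%. CPM values use TMM-scaled library sizes, and intervals cover the spread between these libraries only. The fit was tested on simulated data with known changes.

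Genes were named by rule: the 15 largest called differences per direction at 2 CPM or more with doses that did not overlap, the 8 largest per direction of each dose class, up to 4 called members of each of 47 gene lists, and a short list of JNK, AP-1 and IL1β response genes, of which CSF2 was too low to test. Members of lists that are named beyond this, such as CCL5, C3, LCN2, DDIT4, PPP1R15A, CEBPD, FGF7, TIMP1 and ARRDC4, were chosen after their values were seen. Some genes that these rules or lists hold are not reported here. The comparison, lists and rules were chosen with earlier results of these data known. Alternatives were other size factors (RLE, library totals), other filters, DESeq2 1.42.0, a replicate block, offsets for transcript length and GC content (available for 97.31% of tested genes), the 4 CDD-2728 libraries alone, a minimum difference, other class margins, a stricter IL1β response and fits without single libraries. A block with crossed replicate numbers was added after seeing the data.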

Additional observations from a re-analysis of the deposited data

Results flagged for a closer look

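In 15 of the genes named the effect of CDD-2728 differed between the doses in direction, each dose being called on opposite sides of IL1β alone, and the difference between the doses was itself called by edgeR's quasi-likelihood test. They belong to the 24 genes of this kind in all. The 1 µM libraries enter both the difference from IL1β and the difference between the doses.

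Genes below IL1β at 10 µM and above it at 1 µM were the proteases and ligands MMP13 (log2 10 minus 1 µM -4.2225), TNFSF18 (-2.0809), CXCL1 (-0.6468) and CCL5 (-0.9845). The transcription factor OSR1 (-2.1448), the prostaglandin receptor PTGER4 (-1.7299) and the mesothelial marker LRRN4 (-0.8082) were the same. So were the interferon-stimulated genes IFI44L (-1.7526), MX2 (-1.4212), IFIT1 (-1.1271) and MX1 (-1.0536).

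Genes above IL1β at 10 µM and below it at 1 µM were STC2 (log2 10 minus 1 µM 1.5126), LRRC20 (1.1791), the long noncoding MIR31HG (0.8874) and the early response gene IER3 (0.7316). The dose difference kept its direction and call for all 15 in 16 alternative fits, and 14, all but CXCL1, were also called against a minimum log2 difference of 0.5.

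The calls on opposite sides of IL1β were less stable. Adjusted p at 1 µM in edgeR's quasi-likelihood test was 0.0464 for IFI44L, 0.0419 for MIR31HG, 0.0399 for CXCL1 and 0.0343 for LRRN4. In 15 alternative fits that hold both doses and IL1β alone, 3 genes (OSR1, PTGER4 and TNFSF18) were called on opposite sides each time, and the other 12 lost a call in at least 1. IFI44L and MIR31HG kept them in 7 of the 15 and CXCL1 in 9, most losses being fits without 1 library.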

How the results depend on the processing

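Of 224 named genes called between the doses, 189 kept direction and call under other scalings, filters, DESeq2, the block, the offsets, the 4 libraries alone and the omission of each CDD-2728 library, wherever they had a value, 35 lost the call in at least 1 and none reversed. Apart from the short fixed list, these genes were named by large differences or small adjusted p in the same edgeR fit. Their retention was therefore partly built in and is not that of called genes at large. At 5 CPM or more, 205 of the 224 had a value. Without replicate 1 or 2 of IL1β 222 were called, with the crossed block 224, and against the minimum log2 difference of 0.5 only 114, with no cholesterol or heat shock gene among them. Counts that moved by more than 1.5 times are given here, and the cause was not tested unless the setting itself changes how many genes or samples enter. With library totals, 1389 genes were lower at 10 than at 1 µM, and 271 of the genes lowered by IL1β were higher. Without a filter, 565 genes were held and 225 turned. With length and GC offsets, 3611 were lower, 207 turned and 14 of the IL1β-lowered genes were lower, and with the offsets and the replicate block 3536 and 14. Against a minimum log2 difference of 0.5, 282 were higher and 127 lower. A margin of 0.3 left 155 held and 1335 in the class of 10 µM only, and a margin of 1 gave 623 held. With an IL1β response of at least 4-fold, 86 raised genes were lower and 53 higher, and 1 lowered gene was lower and 21 higher.

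Leaving out 1 library gave 1329 to 1828 higher and 1338 to 2202 lower genes, 87 to 672 held, 104 to 212 further, 1376 to 1766 in the class of 10 µM only and 37 to 540 turned. Of genes raised by IL1β, 155 to 183 were lower and 101 to 127 higher, and of genes lowered by IL1β, 7 to 10 were lower and 91 to 125 higher.

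DESeq2 called 1509 higher and 1915 lower genes. The labels do not say whether replicate numbers pair the libraries. Same-numbered deviations at 1 and 10 µM correlated at -0.144, and over all pairs of groups at -0.2932 to 0.1879. With 2 libraries a group, these values cannot settle whether libraries were paired. With the replicate block, 1987 genes were higher and 2049 lower. With the numbers of 1 µM crossed, a setting chosen after seeing the data, the paired fit called 2611 higher and 2824 lower. With 2 libraries a group, genes of a few counts, such as MMP3 and MMP10, have wide intervals, and 726 genes with a step at 10 µM could not be placed at 1 µM.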

Other observations

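Several genes not named above also had large steps. SLC2A3, a glucose transporter, had 54.3 and 56.5 CPM with IL1β alone, 77.5 and 75.7 CPM at 1 µM and 168 and 186 CPM at 10 µM (log2 between the doses 1.21 ± 0.07, adjusted p = 7.05e-11 in edgeR's quasi-likelihood test). ID1, a target of BMP signalling, rose at each dose as well: 88.0 and 97.5 CPM with IL1β alone, 191 and 155 CPM at 1 µM and 305 and 318 CPM at 10 µM. G0S2, an inhibitor of fat breakdown, had 16.5 and 22.7 CPM at 10 µM and 8.62 and 8.15 CPM at 1 µM (log2 1.22 ± 0.17, adjusted p = 2.1e-05), and the Notch ligand DLL4 had 5.87 and 7.35 CPM at 10 µM and 2.20 and 1.73 CPM at 1 µM (log2 1.74 ± 0.26, adjusted p = 2.6e-05). TDO2, which breaks down tryptophan, was above IL1β alone at both doses and lower at 10 than at 1 µM: 2.07 and 2.70 CPM with IL1β alone, 13.6 and 10.9 CPM at 1 µM and 6.46 and 8.01 CPM at 10 µM. MATN4, a matrix protein, had 9.45 and 7.95 CPM at 10 µM and 1.35 and 1.54 CPM at 1 µM (log2 2.59 ± 0.28, adjusted p = 2.56e-07).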
